A study of Mus musculus with 8 samples.

Results

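The genes described here encode 9 enzymes or subunits of the citric acid cycle and their cytosolic forms: Cs, Aco1, Idh1, Idh2, Idh3a, Ogdh, Fh1, Mdh1 and Mdh2. They were chosen by symbol, and each is represented by its brightest probe set among those annotated with that symbol alone. All 9 had such a probe set, out of 8251 named genes with one. Liver RNA came from 8 female Ames dwarf mice (df/df) and was hybridised to Affymetrix U74Av2 arrays, 1 per animal. The df mutation, when homozygous, leaves mice without the pituitary cell types behind growth hormone, prolactin and thyrotropin. All 8 mice had free access to water and received 30% less of a standard pelleted diet than female dwarf mice fed without limit ate, and their age at death was 24 to 26 months. With 1 group, every comparison is between individual mice, and neither the diet nor the mutation can be assessed.

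The citric acid cycle oxidises the acetyl group of acetyl-CoA to carbon dioxide in the mitochondrial matrix and passes the electrons to the respiratory chain. In liver its intermediates also leave the mitochondrion to feed glucose, fatty acid and amino acid metabolism, and several steps therefore exist as a mitochondrial and a cytosolic enzyme made from separate genes. Citrate synthase (Cs), the mitochondrial NADP-dependent isocitrate dehydrogenase (Idh2), the catalytic subunit of the NAD-dependent isocitrate dehydrogenase (Idh3a), the E1 component of oxoglutarate dehydrogenase (Ogdh), fumarase (Fh1) and mitochondrial malate dehydrogenase (Mdh2) work in the matrix, and fumarase is found in the cytosol as well. Aco1 is the cytosolic aconitase, which without its iron-sulphur cluster binds iron-responsive elements in messenger RNA. Idh1 is the cytosolic and peroxisomal NADP-dependent isocitrate dehydrogenase, and Mdh1 is the cytosolic malate dehydrogenase of the malate-aspartate shuttle.

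The sequences that end at the annotated transcription start are shown for the mitochondrial genes on which the results below turn and, beside them, for the cytosolic form Mdh1. Each is 150 bases long, from RefSeq on GRCm38.p6, and capitals mark matches to the motifs searched. Those were the GC box GGGCGG, the CCAAT box CCAAT, the core of the NRF-1 site, the core CCGGAAG of the GABP site, the nuclear receptor half-site AAGGTCA and the TATA box TATAAA, each on both strands and with no overlap between the matches found.
Cs, chr10:128337577-128337726, plus strand: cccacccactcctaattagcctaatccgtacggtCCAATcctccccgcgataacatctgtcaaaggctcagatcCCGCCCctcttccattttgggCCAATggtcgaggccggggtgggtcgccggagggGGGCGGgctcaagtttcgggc
Idh2, chr7:80115351-80115500, minus strand: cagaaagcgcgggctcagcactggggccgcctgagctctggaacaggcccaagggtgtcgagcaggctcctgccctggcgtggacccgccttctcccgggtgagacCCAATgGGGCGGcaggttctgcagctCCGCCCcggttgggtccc
Fh1, chr1:175625636-175625785, minus strand: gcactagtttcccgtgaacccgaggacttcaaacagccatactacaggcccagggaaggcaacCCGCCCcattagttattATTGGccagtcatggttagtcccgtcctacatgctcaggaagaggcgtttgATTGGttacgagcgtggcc
Mdh2, chr5:135778499-135778648, plus strand: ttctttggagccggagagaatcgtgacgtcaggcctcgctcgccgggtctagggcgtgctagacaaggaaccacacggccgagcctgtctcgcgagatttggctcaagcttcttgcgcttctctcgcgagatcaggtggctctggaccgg
Mdh1, chr11:21571935-21572084, minus strand: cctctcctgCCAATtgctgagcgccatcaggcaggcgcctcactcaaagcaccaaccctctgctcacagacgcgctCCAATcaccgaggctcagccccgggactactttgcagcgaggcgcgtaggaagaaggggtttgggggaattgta
GC boxes lay in 3 of these 5 windows (Cs, Idh2 and Fh1), against 28.6% of the 32851 windows of the same length in the table. CCAAT boxes lay in 4 of the 5 (Cs, Idh2, Fh1 and Mdh1), against 24.5% of all windows. Of the 8 genes described here that have a window, 6 had a GC box and 5 a CCAAT box in at least 1 of their windows. Ogdh and Idh1 have more than 1 window each, while the shares above are of single windows. These counts of genes therefore cannot be set against those shares. The 5 windows shown were 54% (Fh1) to 70.7% (Idh2) G or C, against a median of 54.0% over all windows. The Mdh2 window held none of the 6 motifs, and the other 4 motifs matched none of the 5 windows. Those 4 motifs are found in 3.09% (NRF-1 core), 5.52% (GABP core), 2.31% (half-site) and 7.57% (TATA box) of all windows. A match is a run of letters and not a measured binding site.

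Intensities are on a linear scale, 1 value per gene and mouse, and were already scaled between arrays when deposited. A probe set's brightness depends on its probes, so the levels below are compared between mice and not between genes. Genes with a mean intensity of at least 165.2, the median of all values, were tested, which left 4869 named genes and 8 of the 9 described here. Aco1 was too dim. All 8 listed hepatocyte genes with a probe set were tested, and their summed intensity lay between 101844 (mouse 6) and 141153 (mouse 3). Some of them differed more than that sum. Hnf4a, a hepatocyte transcription factor, read 266 in mouse 5 against 703 to 1308 elsewhere, and Fgb 6095 against 8538 to 11028. Apob ran from 1839 in mouse 5 to 7265 in mouse 3. None (0 of 3) of the cholangiocyte genes with a probe set was bright enough to be tested. Krt19 and Krt7 were below the floor of 37.2 in every liver, and Epcam was above it in mouse 5 alone (57.1). One array stood apart in a measure of RNA quality. The ratio of the 3' to the 5' control probe set of Gapdh was 2.67 in mouse 5, while the other 7 mice had 0.794 to 1.07. That of pyruvate carboxylase was 40.7 in mouse 5, against 2.64 to 9.17 elsewhere. For beta-actin mouse 5, at 1.60, lay within the range of the others (1.45 to 2.0). Results that rest on mouse 5 are therefore given without it as well.

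The 6 mitochondrial genes were each above their own mean of log2 intensity in mice 1, 4 and 5 and below it in mice 2 and 6, while mice 3, 7 and 8 were mixed. Fh1, which hydrates fumarate to malate, read 4098, 3460, 3262, 4537, 5690, 3013, 4619 and 2840 in mice 1 to 8, a mean of 3940 ± 976 (SD, n = 8). Mouse 5 was the highest and mice 8 and 6 the lowest, and the range was 2.0-fold. Idh2, a mitochondrial source of NADPH, read 3111, 2700, 2546, 3097, 3920, 2389, 3016 and 1800 in the same order, a mean of 2822 ± 624 and a range of 2.18-fold. It too was highest in mouse 5 and lowest in mice 8 and 6.

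The other mitochondrial genes spanned less. Mdh2, which closes the cycle by making oxaloacetate, ranged from 4189 in mouse 6 and 4209 in mouse 8 to 6105 in mouse 5, with a median of 5264 and a mean of 5103 ± 697. Cs, which joins acetyl-CoA to oxaloacetate, spanned 1.40-fold, with 1114 in mouse 8 against 1558 in mouse 5 and 1565 in mouse 4, with a median of 1276 and a mean of 1334 ± 170. Ogdh, a subunit of the complex that makes succinyl-CoA, ranged 1.43-fold, from 1978 in mouse 8 and 2136 in mouse 6 to 2838 in mouse 1, with a median of 2467 and a mean of 2412 ± 272. Mice 6 and 8 were the lowest for Mdh2 and Ogdh as well, while for Cs the value of mouse 6 (1242) lay beside those of mice 2 and 3 (1194 and 1242). Idh3a, part of the regulated step from isocitrate to oxoglutarate, was lowest in mouse 6 (439) and mouse 2 (520) and read from 570 to 702 in the other 6 mice, with a median of 595 and a mean of 597 ± 89.6. Its value in mouse 8 (591) was near the median, unlike those of the other mitochondrial genes. A second, far dimmer Idh3a probe set was not used.

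**Figure D1:**
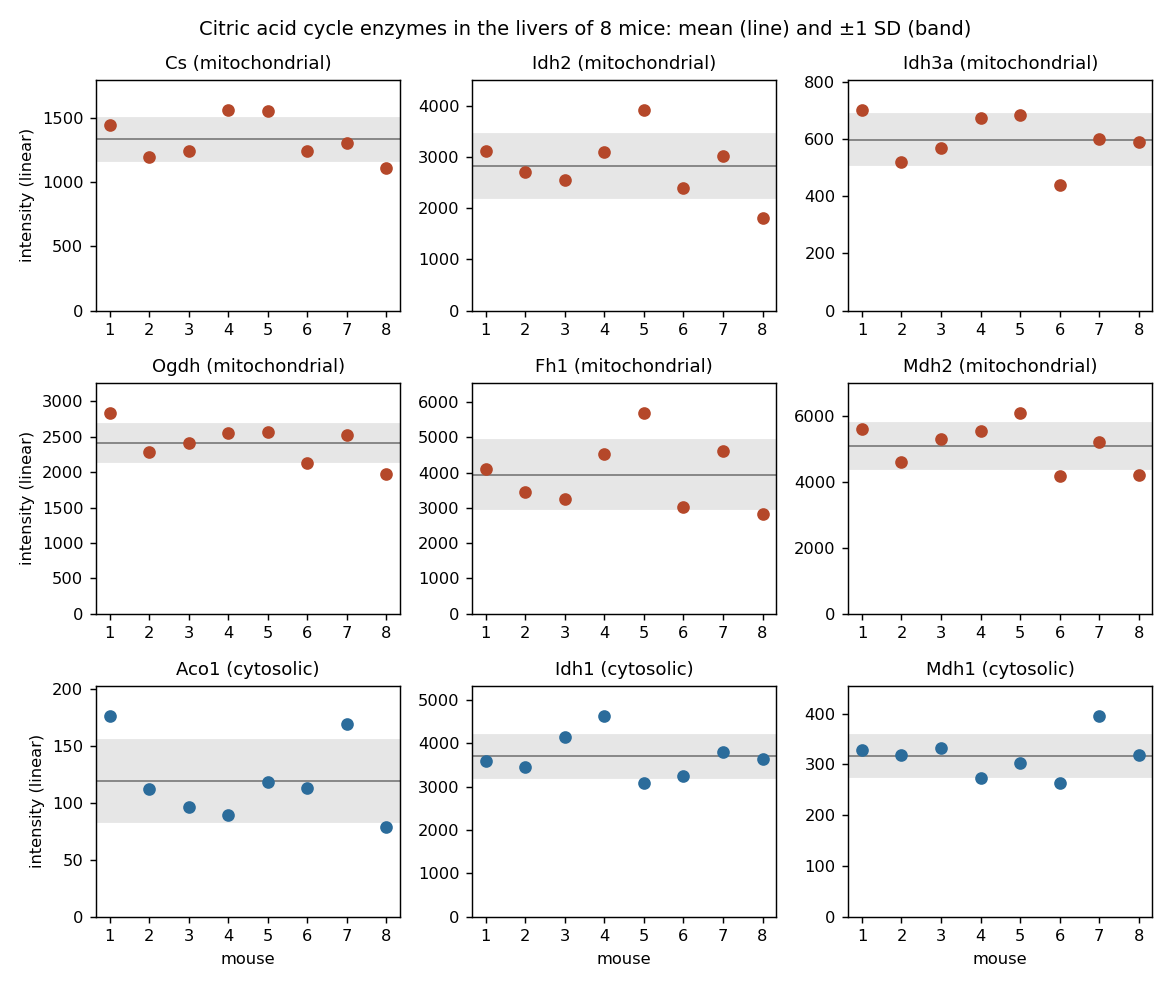
Intensity (linear scale, each y axis from 0) of the 9 genes by mouse, 1 point per liver, with the mean as a line and ±1 SD as a band; red marks mitochondrial and blue cytosolic enzymes. Fh1, Idh2 and Mdh2 are highest in mouse 5 and low in mice 6 and 8, while Idh1 is lowest in mouse 5.

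The 3 cytosolic forms each had a different order of mice. Idh1 was lowest in mouse 5 (3091) and mouse 6 (3238) and highest in mouse 4 (4624), with a median of 3611 and a mean of 3693 ± 496. Its lowest liver was thus the one in which Idh2 was highest. Mdh1 was lowest in mouse 6 (264) and mouse 4 (272) and highest in mouse 7 (395), with a median of 319 and a mean of 317 ± 40.5. Aco1 read 177 in mouse 1 and 170 in mouse 7, from 112 to 118 in mice 2, 5 and 6, and 96.2, 89.9 and 78.7 in mice 3, 4 and 8. Its range of 2.24-fold was the widest of the 9, at intensities (mean 119 ± 35.8) under the limit for testing.

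The means printed above with an SD are linear, while the mean that a gene was above or below is that of its log2 intensity. Of the 6 mitochondrial genes 2 were above their mean in mouse 3, 5 in mouse 7 and 1 in mouse 8 (Idh3a, by 0.00036). In mouse 6 the 3 cytosolic genes were below their means too, so all 9 were low there, against 53.6% of tested genes, and in mouse 8 it was 7 of 9, against 49.7%. In mice 1 and 7, 8 of the 9 were above their means, against 54.7% and 55.2% of tested genes, and in mice 4 and 5 it was 7 of 9, against 53.6% and 48.3%. The highest value was at least 2 times the lowest for 3 of the 9 (Aco1, Idh2 and Fh1), against 23.4% of tested genes. The lowest value lay in mouse 6 or 8 for 8 of the 9 genes, against 30.1% of tested genes, and the highest lay in mouse 5 for 3 of the 9, against 20.8%. No mouse stood apart from the other 7 in any of the 9 genes by Dixon's criterion for 8 values, which 8.69% of tested genes met.

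Taken singly, no gene passed a test for varying more than genes of like brightness. In a one-sided F test of the variance between mice against the variance expected at that brightness (limma), 0 of the 8 tested genes had an adjusted p under 0.05, and none (0 of 8) had an unadjusted p under 0.05, against 0% and 6.38% of the 6265 tested probe sets. The largest ratios of variance were 2.88 for Fh1 (SD 0.35 on the log2 scale, unadjusted p = 0.169) and 2.63 for Idh2 (SD 0.33, unadjusted p = 0.191), and both had an adjusted p of 0.989. Idh3a had a ratio of 1.16, and the ratios of the other 5 lay between 0.518 (Mdh1) and 0.957 (Mdh2). The median SD of the 8 genes was 0.19, that of all tested genes 0.23. In simulated data of this design the test recovered 0% of 200 probe sets whose SD had been set to 2, 4 or 8 times its expected value, so a count of 0 shows little about these genes.

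Which of the enzymes varied together was asked of 8 pairs, either the mitochondrial and cytosolic form of an enzyme or neighbouring steps of the cycle. Fh1 and Mdh2, which act in succession, correlated over the 8 mice with r = 0.870 (exact two-sided permutation p = 0.00605, adjusted over the 8 pairs 0.037; Spearman's rho = 0.762, exact p = 0.0368). Leaving out the 2 mice most distant from the Fh1 median gave r = 0.728. Cs and Mdh2, which share oxaloacetate, had r = 0.857 (exact permutation p = 0.00925, adjusted 0.037; rho = 0.738, exact p = 0.0458), and r = 0.789 after the same step on Cs. These were the only pairs of the 8 past the threshold. Without mouse 5 their correlations were 0.811 and 0.801, and 0 of the 8 pairs passed. The count of pairs that passed was also 0 without mouse 1, 2, 4 or 7, 1 without mouse 6, 2 without mouse 3 and 5 without mouse 8. By rank correlation 0 of the 8 passed (the lowest adjusted p of an exact permutation was 0.0857).

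The other pairs of neighbouring mitochondrial steps also had positive correlations that missed the threshold. Idh3a and Ogdh had r = 0.695 (rho = 0.857, r = 0.501 without the 2 farthest mice), Cs and Idh3a r = 0.682 (rho = 0.690, r = 0.496) and Idh2 and Idh3a r = 0.538 (rho = 0.810, r = 0.906), with exact permutation p-values of 0.0525, 0.0618 and 0.170 for r (adjusted 0.124, 0.124 and 0.273) and of 0.0107, 0.0694 and 0.0218 for rho (adjusted 0.0857, 0.111 and 0.0871). No correlation between the mitochondrial and the cytosolic form of an enzyme passed. Mdh1 and Mdh2 had r = 0.192 (exact permutation p = 0.654, adjusted 0.748; rho = 0.167, exact p = 0.703) and r = -0.305 without the 2 farthest mice. Idh1 and Idh2 had r = -0.091 (exact permutation p = 0.833; rho = -0.143, exact p = 0.752) and r = 0.110 without the 2 farthest mice. The cytosolic neighbours Aco1 and Idh1 had r = -0.276 (exact permutation p = 0.513, adjusted 0.684; rho = -0.429, exact p = 0.299) and r = -0.645 without the 2 farthest mice.

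As a description of all 36 pairs, the 15 pairs of mitochondrial genes had correlations from 0.538 to 0.930 (Idh2 with Fh1), with a median of 0.840. The 18 pairs of a mitochondrial with a cytosolic gene had correlations from -0.220 (Cs with Mdh1) to 0.663 (Aco1 with Ogdh), with a median of 0.207. The 3 pairs of cytosolic genes had -0.276, 0.058 and 0.521. Without mouse 5 the medians of the first 2 classes were 0.815 and 0.377, and among the pairs of mitochondrial genes the lowest was 0.423 (Idh2 with Idh3a) and the highest 0.933 (Ogdh with Mdh2). All these correlations share the same 8 arrays and their scaling, and the pairs share genes.

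**Figure D2:**
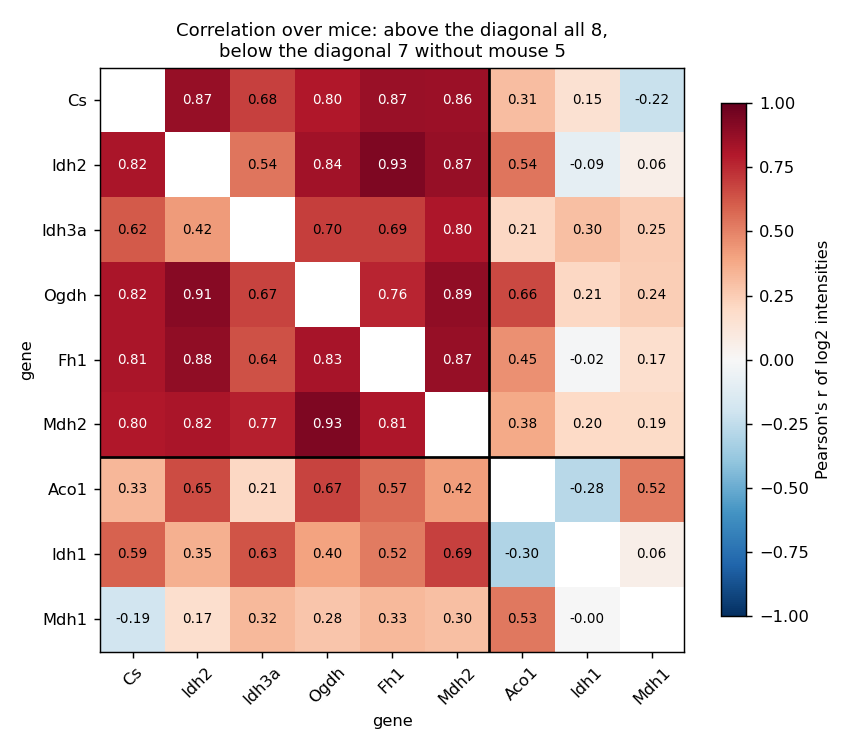
Pearson's r of log2 intensities for each pair of the 9 genes, over all 8 mice above the diagonal and over 7 mice without mouse 5 below it; lines separate the 6 mitochondrial from the 3 cytosolic genes. The mitochondrial block is positive throughout, from 0.538 to 0.930 with all mice, while those of Idh1 and Mdh1 with mitochondrial genes lie between -0.220 and 0.302 with all mice, and reach 0.686 (Idh1 with Mdh2) without mouse 5.

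The livers differed widely in interferon response genes, and each gene was fitted on an interferon score. That score averages, over 21 tested interferon response genes, how far each lay from its own mean on the log2 scale. It was -0.18, 0.05, 0.83, -1.42, -1.36, 2.03, -1.53 and 1.58 in mice 1 to 8. Its genes include Iigp1, an immunity-related GTPase that ranged from 839 to 15220, and Ubd, a ubiquitin-like protein that ranged from 32.1 to 7460. Fh1 and Idh2 fell as the score rose. The slope of Fh1 was -0.23 ± 0.04 (SE, n = 8) on the log2 scale per unit of score (limma, adjusted p over all probe sets 0.00716), and that of Idh2 was -0.20 ± 0.05 (limma, adjusted p = 0.0446). That is 2 of 8 tested genes falling and 0 rising, against 2.97% of all tested probe sets falling and 5.33% rising.

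The slopes of the other tested genes were negative, as were those of 53.5% of all tested genes, and did not pass. In simulated data with no signal beyond 200 planted slopes, this fit recovered 0% of slopes of 0.2. Here 334 probe sets rose and 186 fell, and a smaller slope passed for the carrier gene Slc25a11 (-0.16). The simulated share therefore does not measure the power of the fit to these data. Missing the threshold does not show that a slope is absent. Mdh2 had -0.12 ± 0.04 (limma, adjusted p = 0.108), Idh3a -0.11 ± 0.05 (adjusted p = 0.199; -0.06 ± 0.06 without mouse 6), Cs -0.10 ± 0.04 (adjusted p = 0.185) and Ogdh -0.09 ± 0.04 (adjusted p = 0.214). The cytosolic forms had slopes closer to 0, -0.03 ± 0.05 for Idh1 (limma, adjusted p = 0.763) and -0.04 ± 0.06 for Mdh1 (adjusted p = 0.731). The median slope of the 8 genes was -0.11 and that of all tested genes -0.01. The correlation of Fh1 with the score was r = -0.925 (exact permutation p = 0.00149, adjusted over 18 relations 0.0134; rho = -0.905, exact p = 0.00456, adjusted 0.0411), and r = -0.882 without the 2 mice of most extreme score. That of Idh2 was r = -0.821 (exact permutation p = 0.00766, adjusted 0.0276; rho = -0.762, exact p = 0.0368, adjusted 0.125), and -0.718 without those mice. Aco1, too dim for the fit, had r = -0.410 (exact permutation p = 0.311; rho = -0.381, exact p = 0.360; r = -0.195 without those mice).

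Fh1 passed without each of the 8 mice in turn. Without mouse 5 its slope was -0.20 ± 0.04 (limma, adjusted p = 0.00975), and with the 3' to 5' ratio of Gapdh as a covariate it was -0.20 ± 0.04 (adjusted p = 0.00850). With the oxidative phosphorylation score described below as a covariate it no longer passed (slope -0.16 ± 0.07, adjusted p = 0.387). Idh2 passed without mouse 7 and missed the threshold without each of the other 7 mice, with an adjusted p of 0.183 without mouse 8 and 0.0872 without mouse 5. Markers of other cells moved with the same score. Of 13 tested macrophage genes 12 rose with it, against 5.33% of all tested probe sets. The summed intensity of the 14 macrophage genes was 6605 in mouse 4 and 42565 in mouse 6, the extremes. Rising too were 2 of 3 tested T and NK cell genes, Ccl5 and Ltb, while the third, Cd4, did not pass (slope 0.22 ± 0.13, limma, adjusted p = 0.375). The other T and NK cell genes with a probe set were too dim to be tested, with means such as 22.9 for Cd3g and 130 for Gzmb. Among the stellate cell and matrix genes 1 of 6 tested rose, the collagen gene Col1a1 (slope 0.36 ± 0.05, limma, adjusted p = 0.00163). The hepatocyte score lay between -0.26 (mouse 5) and 0.24 (mouse 3), and 0 of 8 hepatocyte genes passed in either direction. With the hepatocyte score as a covariate the slope of Fh1 was -0.22 ± 0.04 (limma, adjusted p = 0.00495). The genes of that score did not move together. In mouse 5 Cps1 was at its highest (27687), while Hnf4a (266) and Apob (1839) were at their lowest. The score therefore cannot stand for the share of hepatocytes, and the part of cell composition in the result was not tested. In whole liver, fewer cells of a type and less RNA per cell cannot be told apart.

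**Figure D3:**
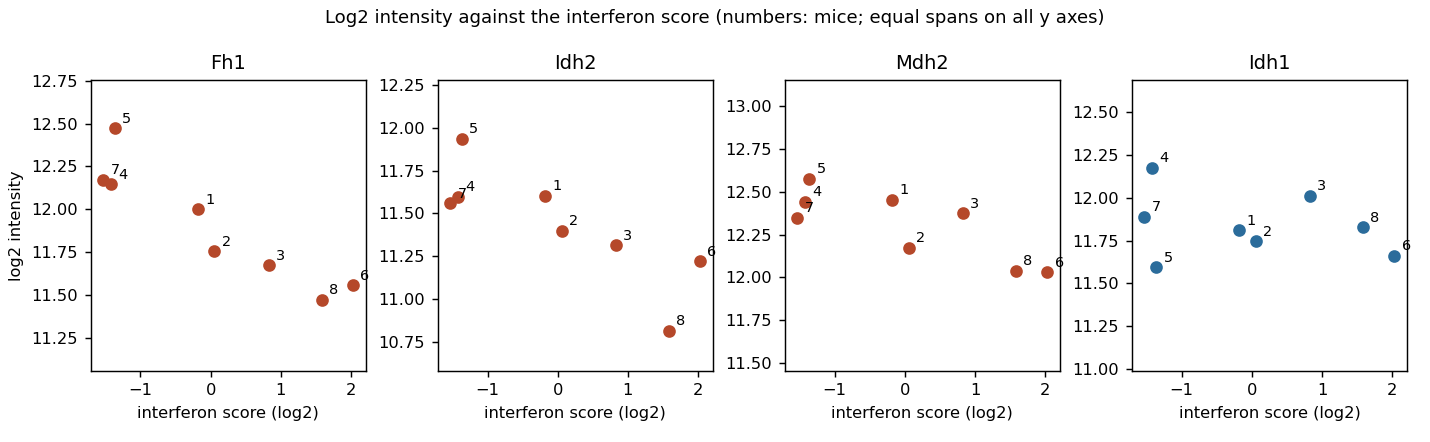
Log2 intensity of Fh1, Idh2, Mdh2 and Idh1 against the interferon score (mean log2 deviation of 21 genes), 1 numbered point per mouse, with y axes of equal span. Fh1 declines across the whole range of scores, Idh2 has its lowest point in mouse 8, and Idh1 has no clear slope.

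The cycle hands its electrons to the respiratory chain, so the genes were also fitted on an oxidative phosphorylation score, built in the same way from 52 tested genes of complexes I, III, IV and V and cytochrome c. The score ran from -0.26 in mouse 6 and -0.25 in mouse 8 to 0.27 in mouse 5. It moved with the RNA quality measure, with r = 0.695 against the log2 ratio of the 3' to the 5' Gapdh probe set (exact permutation p = 0.0180, adjusted over 3 relations 0.0269; rho = 0.810, exact p = 0.0218, adjusted 0.0653). That r was 0.544 without mouse 5. It was 0.889 without mice 6 and 8, the 2 farthest from the median score, a run that keeps mouse 5. Fh1, Idh2 and Mdh2 rose with it, with slopes of 1.70 ± 0.36, 1.62 ± 0.35 and 1.07 ± 0.23 (SE, n = 8) on the log2 scale per unit of score (limma, adjusted p = 0.0223, 0.0231 and 0.0231). That is 3 of 8 tested genes rising and 0 falling, against 4.25% of all tested probe sets rising and 4.63% falling. Markers of other cells moved with this score too. Of the macrophage genes 10 of 13 tested fell with it, of the T and NK cell genes 1 of 3, and of the stellate cell and matrix genes 2 of 6 (Col1a1 and Col3a1, both collagens), while 1 of 2 erythrocyte genes rose (Hba-a1, a haemoglobin chain). Of the interferon response genes 13 of 21 fell, and 0 of 8 hepatocyte genes passed. The part of other cells in the result was not tested. With the hepatocyte score as a covariate 3 genes passed again, but that score cannot stand for the share of hepatocytes. The slopes of Idh3a (0.90 ± 0.38, and 0.51 ± 0.44 without mouse 6), Cs (0.81 ± 0.30) and Ogdh (0.72 ± 0.29) did not pass (limma, adjusted p = 0.172, 0.124 and 0.149), nor did those of Idh1 (0.18 ± 0.39) and Mdh1 (0.16 ± 0.44). The median slope was 0.86 for the 8 genes and -0.0013 for all tested genes.

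Mdh2 followed the score most closely, with r = 0.962 (exact permutation p = 0.000422, adjusted over 18 relations 0.00759; rho = 0.929, exact p = 0.00223, adjusted 0.0402). Its r was 0.875 without mice 6 and 8, the 2 farthest from the median score, and 0.948 without mouse 5. Without mouse 5, mouse 6 or mouse 8, 0 of the 8 genes passed, and 0 passed with the Gapdh ratio as a covariate, although the slopes remained positive for Fh1, Idh2 and Mdh2 (1.47 ± 0.45, 1.49 ± 0.44 and 1.12 ± 0.28 without mouse 5, with limma's adjusted p = 0.0890, 0.0838 and 0.0529). Without mouse 6 those slopes were 1.85 ± 0.46, 2.01 ± 0.40 and 1.07 ± 0.30, and without mouse 8 they were 1.65 ± 0.47, 1.23 ± 0.39 and 1.07 ± 0.31. Calls were lost across the whole table in these runs. Of all probe sets, 266 rose with the score over 8 mice, 155 without mouse 5, 3 without mouse 6 and 24 without mouse 8. The 2 scores were themselves related across the mice (r = -0.839, exact permutation p = 0.0100, adjusted over 3 relations 0.0269; rho = -0.643, exact p = 0.0962, adjusted 0.144), with r = -0.492 without the 2 mice of most extreme interferon score.

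**Figure D4:**
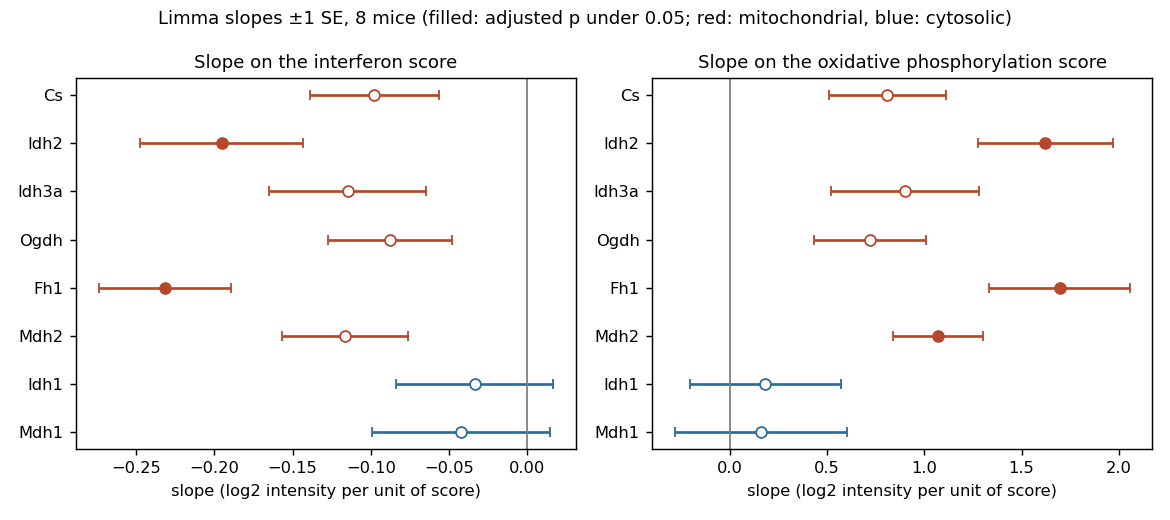
Slopes of the 8 tested genes on the interferon score (left) and the oxidative phosphorylation score (right), in log2 intensity per unit of score with ±1 SE; filled points have a limma adjusted p under 0.05, red marks mitochondrial and blue cytosolic enzymes. Fh1 and Idh2 are filled in both panels and Mdh2 in the right one, while Idh1 and Mdh1 lie within 1 SE of 0.

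Whether the mitochondrial form of an enzyme differed from the cytosolic form in these relations was tested on the ratio of the 2 intensities, a test added after the values were seen. The ratio of Idh2 to Idh1 was lowest in mouse 8 (0.495) and highest in mouse 5 (1.27). The ratio of Mdh2 to Mdh1 was lowest in mouse 7 (13.2) and highest in mouse 4 (20.4). A ratio of 2 probe sets also carries their brightness, so only its variation between mice is read. Neither ratio passed against either score after adjustment over the 4 relations. The ratio of Idh2 to Idh1 had r = -0.568 with the interferon score (exact permutation p = 0.139, adjusted 0.185; rho = -0.524, exact p = 0.197; r = -0.447 without the 2 farthest mice) and r = 0.657 with the oxidative phosphorylation score (exact permutation p = 0.0705, adjusted 0.141; rho = 0.357, exact p = 0.389; r = 0.599). Without mouse 5 those correlations were -0.450 and 0.367. The ratio of Mdh2 to Mdh1 had r = -0.425 (exact permutation p = 0.288, adjusted 0.288; rho = -0.214, exact p = 0.619; r = -0.273) and r = 0.675 (exact permutation p = 0.0618, adjusted 0.141; rho = 0.738, exact p = 0.0458; r = 0.779), or -0.276 and 0.521 without mouse 5. A difference between the slopes of the mitochondrial and cytosolic forms was thus not shown. Without mouse 5, the liver in which Idh1 was lowest, Idh1 itself had r = 0.749 with the oxidative phosphorylation score, against r = 0.176 with all 8 mice (rho = 0.214; exact permutation p = 0.686 for r and 0.619 for rho, adjusted 0.717 and 0.696).

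Among the remaining enzymes of the cycle all slopes had the sign seen above. A negative slope on the interferon score was found in 53.5% of all tested genes, and a positive one on the oxidative phosphorylation score in 49.9%. The cycle genes share the same arrays, so their signs are not separate observations. Of 8 listed genes 7 had a probe set and 6 were tested. With the interferon score 1 fell and 0 rose, and with the oxidative phosphorylation score 2 rose and 0 fell, against 2.97% of all tested probe sets falling with the first and 4.25% rising with the second. The median slopes were -0.13 and 0.85. Suclg1, the common subunit of succinyl-CoA ligase, ranged from 3634 in mouse 8 to 6596 in mouse 5 (median 5005), with slopes of -0.18 ± 0.04 on the interferon score and 1.41 ± 0.30 on the oxidative phosphorylation score (limma, adjusted p = 0.0286 and 0.0219). Sucla2, its ATP-forming partner, ranged from 1448 in mouse 6 to 2672 in mouse 5 and rose with the second score (slope 1.18 ± 0.32, limma, adjusted p = 0.0477), on a probe set that can share probes with related transcripts. Suclg2, the GTP-forming partner, ranged from 3984 in mouse 3 to 7323 in mouse 5 and passed neither test. Without mouse 5, mouse 6 or mouse 8, 0 of the 6 passed either test.

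Succinate dehydrogenase, which is both a cycle enzyme and complex II of the respiratory chain, was measured by all 4 subunits. With the interferon score 2 fell, against 2.97% of all tested probe sets. These were Sdha (slope -0.16 ± 0.04, limma, adjusted p = 0.0256) and Sdhb (-0.15 ± 0.04, adjusted p = 0.0480). With the oxidative phosphorylation score 2 rose, against 4.25% of all tested probe sets. These were Sdhb (1.29 ± 0.25, limma, adjusted p = 0.0162) and Sdhd (1.76 ± 0.44, adjusted p = 0.0385). For both scores Sdhb was read on a probe set that can share probes with other transcripts. Sdhd, a membrane anchor, had its lowest value in mouse 6 (4887) and its highest in mouse 5 (11283), around a median of 6660. Without mouse 5 the counts were 0 falling with the first score and 1 rising with the second, and without mouse 6 or mouse 8 both were 0. Over all probe sets the count falling with the first score went from 186 to 147, 21 and 47 in these runs. The count rising with the second went from 266 to 155, 3 and 24.

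**Figure D5:**
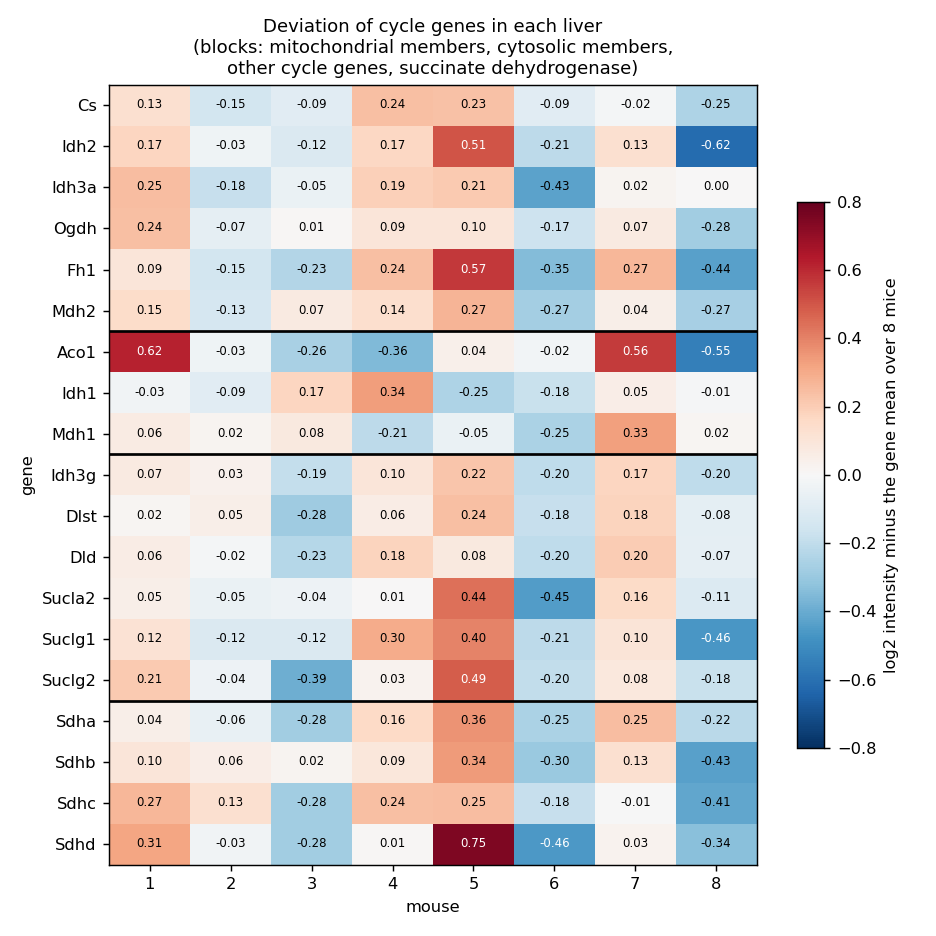
Deviation of each gene's log2 intensity from its 8-mouse mean, by mouse (columns), for the 6 mitochondrial and 3 cytosolic genes, the other tested cycle genes and the succinate dehydrogenase subunits (blocks from top to bottom). Mouse 5 is above the mean in all mitochondrial rows and mouse 6 below it in every row, and the 3 cytosolic rows are all above it in mouse 7.

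Genes through which carbon enters or leaves the cycle were read against the same shares of all probe sets, 2.97% and 4.25%. Of the genes of pyruvate entry 6 were tested, 0 passed with the interferon score and 1 rose with the oxidative phosphorylation score. That was Pdhb, the beta subunit of pyruvate dehydrogenase (slope 1.38 ± 0.36, limma, adjusted p = 0.0425), which read 4284 in mouse 5 against 2142 to 2853 elsewhere, and without mouse 5, mouse 6 or mouse 8 none (0 of 6) passed. Pdha1, its alpha subunit, ranged from 2300 in mouse 3 to 4000 in mouse 7, and Pdk1, a kinase that inhibits the complex, from 559 in mouse 3 to 1071 in mouse 5, and neither passed. Of the 8 tested genes of shuttles and exchange with the cytosol 1 fell with the interferon score, Slc25a11, the oxoglutarate-malate carrier (-0.16 ± 0.04, limma, adjusted p = 0.0229), and 0 passed with the other score. The count falling with the interferon score was 1 without mouse 5 and 0 without mouse 6 or mouse 8. Me1, the cytosolic malic enzyme, had the largest spread of that list, 335 in mouse 6 against 1536 in mouse 2, with a slope of -0.34 ± 0.12 on the interferon score (limma, adjusted p = 0.118), and Pck1, which turns oxaloacetate into phosphoenolpyruvate, had 5718 in mouse 2 and 8365 in mouse 5 as its extremes. Among the 52 oxidative phosphorylation genes 7 fell with the interferon score and 0 rose, against 2.97% and 5.33% of all tested probe sets, with the lowest adjusted p in Ndufab1 (-0.18 ± 0.04, limma, adjusted p = 0.0161), Ndufb3 (-0.18 ± 0.04, 0.0229), Ndufb9 (-0.18 ± 0.04, 0.0306) and Ndufa6 (-0.15 ± 0.04, 0.0312), all genes of complex I. The brightest of that list, Uqcrq of complex III, had its lowest value in mouse 6 (10229) and its highest in mouse 5 (16183), and Ndufc1 of complex I, with the largest SD, from 2335 in mouse 6 to 5361 in mouse 5. Without mouse 5, 3 of the 52 fell, and without mouse 6 or mouse 8 none (0 of 53) fell, in runs in which the count over all probe sets went from 186 to 147, 21 and 47.

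The genes whose pattern over the 8 mice was most like that of each enzyme are given as a description, since they were the highest of about as many correlations as there are tested genes. Fh1 was most like Uqcrc1 (r = 0.988), a core subunit of complex III, and Ndufs3 (r = 0.987), a core subunit of complex I. Cs was most like Suclg1 (r = 0.952) and the chaperonin subunit gene Cct4 (r = 0.938). Idh2 was most like S100a1 (r = 0.988), a calcium-binding protein, and Sod1 (r = 0.987), the cytosolic superoxide dismutase. Mdh2 was most like Pemt (r = 0.972), which makes phosphatidylcholine, and Ahcy (r = 0.969), which hydrolyses S-adenosylhomocysteine. Ogdh was most like the transcription factor gene Tef (r = 0.983) and Nipsnap1 (r = 0.975), and Idh3a was most like Ube4b (r = 0.940) and Mettl8 (r = 0.938). The cytosolic forms had other neighbours, Azgp1 (r = 0.938) and Smad4 (r = 0.932) for Idh1, Lgals2 (r = 0.943) and Tsfm (r = 0.908) for Mdh1, and Vps51 and Rnf141 (both r = 0.927) for Aco1.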

How the data were processed

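RNA from 8 livers was measured on 8 Affymetrix U74Av2 arrays, read on a Hewlett-Packard GeneArray Scanner per the labels. The deposited table holds 1 linear intensity per probe set and array, and the sources used here do not name the software that summarized the probes. The 2% trimmed mean of each array differed by 0.0140% between arrays, so the intensities had been scaled before the authors deposited them. Values under 37.2 (percentile 25 over the table) were set to that floor before log2 was taken. Testing was limited to probe sets averaging 165.2 or more, without the 66 control probe sets (6265 probe sets, 67 of 50120 values at the floor). Of the probe sets other than controls, 10833 had 1 symbol, 396 several and 1193 none in the platform annotation, and those with several were not named.

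Spread was tested with limma's squeezeVar (brightness trend, robust, prior degrees of freedom 3.80) and slopes with lmFit and eBayes (limma 3.58.1, R 4.3.3), with Benjamini-Hochberg adjustment over all tested probe sets at 0.05. Correlations were tested exactly over all 40320 pairings of the mice. Data were also simulated with 200 planted slopes among 6265 probe sets and no slope in the rest, unlike the measured data. There the interferon fit recovered 71.5% of slopes of 0.4 and 0% of slopes of 0.2 (log2 per unit). The genes, gene lists and tests were chosen with earlier results of these data known. The relations of the scores with the Gapdh ratio were added after the values were seen. Named genes of the other lists were those with the highest mean, the largest SD or, up to 4, the lowest adjusted p past the threshold. For the oxidative phosphorylation list that p was taken from the interferon fit only, and for the interferon list no gene was named by its p. Nothing in the labels says more about the replicates than 1 array per mouse, and the number of arrays limits the precision. Alternatives were the scaling, the filter, the prior, averaged probe sets, family probe sets left out, covariates, rank correlation and leaving out mice.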

Additional observations from a re-analysis of the deposited data

Results flagged for a closer look

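In mouse 5 the 3' to 5' ratio of the Gapdh control probe sets was 2.67, apart from the other 7 mice by Dixon's criterion, and the ratio of the pyruvate carboxylase control probe sets was 40.7. Pdhb read 4284 in mouse 5, apart from the other 7 mice by the same criterion. Other genes of the lists also stood apart in mouse 5, in both directions. Atp5l was high there (12284.5, against 7283.5 to 8917.3 elsewhere) and Slc25a1 low (1275.2, against 2374.5 to 2909.2). Chance marks about 1 in 20 groups of 8 values by that criterion. Mouse 5 also had the highest Fh1, Idh2 and Mdh2, and the part of RNA quality in those values was not tested beyond the fits without mouse 5 and with the control ratios as covariates.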

How the results depend on the processing

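No paired analysis was possible because the mice form 1 group. The 2 genes that fell with the interferon score became 1 with the Gapdh ratio or the hepatocyte score as a covariate, without a filter on brightness, and without mice 5 and 6, became 0 with the oxidative phosphorylation score as a covariate, and numbered 1 to 2 without single mice. The 3 genes that rose with the oxidative phosphorylation score became 6 with a common median, 1 without the filter, 0 with the Gapdh or the pyruvate carboxylase ratio as a covariate and 0 without mice 5 and 6, and numbered 0 to 3 without single mice. The 2 correlated pairs became 4 with a common median and 0 with quantile normalization, with ranks or without mice 5 and 6, and numbered 0 to 5 without single mice. A common median shifted arrays by -0.10 (mouse 8) to 0.18 (mouse 5) on the log2 scale. The spread test gave 0 genes in all settings run. The runs without mice 5 and 6 and those with the pyruvate carboxylase ratio or the oxidative phosphorylation score as a covariate were chosen after seeing the data. The cause of these changes was not tested.

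Signs turned for results that had not passed. The Idh1 slope on the interferon score ran from -0.073 to 0.0077 without single mice, and that on the oxidative phosphorylation score from -0.060 to 0.84, with -0.0021 after quantile normalization. The Mdh1 slopes ran from -0.081 to 0.0016 and from -0.25 to 0.37 without single mice, and the second was -0.15 without mice 5 and 6. The Mdh2 slope on the interferon score was 0.00014 with the oxidative phosphorylation score as a covariate. The Idh1 and Idh2 correlation was 0.314 with a common median, 0.288 without mice 5 and 6, 0.110 without the 2 farthest mice and -0.350 to 0.352 without single mice. The Mdh1 and Mdh2 correlation was -0.048 without mice 5 and 6, -0.305 without the 2 farthest mice and -0.171 to 0.374 without single mice.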
